A study of Mus musculus with 44 samples.

Results

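Oligodendrocytes wrap axons in myelin, and 30 genes that mark these cells and their precursors were followed through 4 RNA fractions of the mouse forebrain. The members were taken from a list of gene symbols and matched to Ensembl identifiers with the GENCODE M21 annotation. No measured value of these libraries entered that rule, but the members were chosen with earlier results of these data known. All 30 were found among the 50714 genes present in every count file. By role, 14 encode proteins of the myelin sheath (Mbp, Mog, Mag, Mobp, Cnp, Cldn11, Ermn, Opalin, Mal, Pllp, Tspan2, Tmem88b, Ppp1r14a and Gjb1) and 7 serve lipid, iron or other metabolism or signalling (Ugt8a, Gpr37, Aspa, Fa2h, Trf, Qdpr and Car2). Another 5 are transcription factors (Myrf, Sox10, Olig1, Olig2 and Nkx6-2), 2 mark cells about to form myelin (Enpp6 and Bcas1) and 2 mark precursors (Pdgfra and Cspg4).

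The 44 libraries came from dorsal cortex and hippocampus of mice killed at postnatal day 28 to 29. Per the labels all mice, controls included, were CX3CR1-CreERT2 (+/-) x RPL10a-GFP flox (+/-), so that tamoxifen switches on a GFP-tagged ribosomal protein in cells that use the Cx3cr1 promoter, chiefly microglia. The series' design text instead gives the floxed allele as fl/fl and calls the controls untreated, where the labels give vehicle. Tamoxifen mice received 100 mg/kg on postnatal days 15, 17 and 19. Input was RNA of the homogenate, and MG_TRAP was the RNA pulled down from it with the tagged ribosomes (translating ribosome affinity purification, TRAP). SN_input was RNA of the synaptosome fraction, and PeMP_TRAP (SN_TRAP in the titles of the later libraries) was the TRAP sample made from that fraction. In every fraction 3 libraries came from controls, lettered A, B and C, and 8 from tamoxifen mice, lettered D to K. Letters up to F make up a first set and the later 5 a second, told apart by the style of their titles, and the second set has no controls. The labels do not say whether a letter stands for 1 animal or whether animals were pooled, so p-values measure the spread between these libraries, which may be partly technical.

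As background, oligodendrocytes extend processes around axons and build the sheath from lipids and a small set of very abundant proteins. The Mbp transcript is carried in RNA granules along the processes and translated at the sheath, and Mobp transcripts are also found there, while most myelin membrane proteins are made in the cell body and shipped as protein. A synaptosome preparation collects pinched-off nerve endings by density, and myelin fragments are a known companion of such preparations. Microglia do not make myelin, but they engulf it.

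Assigned reads ranged from 746616 to 35584637 per library, and a count of 3, taken as the floor that a count of 0 still allows, corresponded to 0.0847 to 4.05 CPM (counts-per-million). These floors cover counting error only, because without molecular identifiers PCR copies of 1 molecule are counted apart. The pull-down was checked by 3 microglial genes, the receptors Cx3cr1 and P2ry12 and the surface protein Tmem119. In tamoxifen mice their level in MG_TRAP exceeded that in Input by 94.0-fold, 103-fold and 109.7-fold, and the 15 microglial markers summed to 15992 to 58244 CPM in MG_TRAP against 206 to 363 in Input. Control MG_TRAP held 3308 to 6389.7 CPM of the same markers, against 397 to 518 in control Input. In Input every oligodendrocyte role group was present: 28 to 30 of the 30 members had more than 3 counts in each of the 11 libraries. All 30 members passed the filter on low counts in every fit.

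For reference, sequence just upstream of 4 sheath genes is printed because the results turn on them: Mobp, whose RNA goes to the sheath; Cnp, the sheath gene against which Mbp and Mobp counts are set below; and Ermn and Mog, which fell in PeMP_TRAP. Each run covers bases 250 to 51 before the RefSeq start (GRCm38.p6), 5′ to 3′ on the gene's strand, and holds no annotated exon base. Capitals mark the letters of a SOX motif (ACAAAG) or a MYRF motif (CTGGNAC) on either strand.
Mobp (chr9:120149492-120149691, + strand): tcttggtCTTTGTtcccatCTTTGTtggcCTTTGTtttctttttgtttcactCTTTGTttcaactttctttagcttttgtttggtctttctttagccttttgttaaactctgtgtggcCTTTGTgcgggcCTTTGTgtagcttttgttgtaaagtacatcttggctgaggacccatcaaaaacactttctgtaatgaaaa
Cnp (chr11:100574689-100574888, + strand): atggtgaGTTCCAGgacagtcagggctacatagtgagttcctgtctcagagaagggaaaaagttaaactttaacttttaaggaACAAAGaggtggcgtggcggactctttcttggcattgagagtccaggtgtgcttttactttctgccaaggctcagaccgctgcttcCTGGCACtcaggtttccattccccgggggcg
Ermn (chr2:58052915-58053114, - strand): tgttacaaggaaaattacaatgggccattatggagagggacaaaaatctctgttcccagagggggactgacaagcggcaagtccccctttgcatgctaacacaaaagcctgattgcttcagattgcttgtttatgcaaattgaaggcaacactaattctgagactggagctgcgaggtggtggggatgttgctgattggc
Mog (chr17:37023449-37023648, - strand): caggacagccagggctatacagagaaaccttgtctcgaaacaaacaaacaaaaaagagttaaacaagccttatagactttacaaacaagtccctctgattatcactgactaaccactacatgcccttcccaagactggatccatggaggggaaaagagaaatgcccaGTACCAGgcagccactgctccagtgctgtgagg
RefSeq windows were matched for 22 of the 30 members (28 windows). The Mobp window held 6 SOX matches and no MYRF match, Cnp held 1 and 2, Mog held no SOX match and 1 MYRF match, and Ermn held neither. Over all members, 7 of the 28 windows held a SOX match and 7 a MYRF match, whereas 13.6% and 13.2% of all 32851 windows of the same length did. An E-box motif (CANNTG) was in 17 of the 28, against 59.0% of all windows. Some members have several windows, and overlapping windows of Mag hold the same matched letters, so the windows are not independent. A match here is a description of letters and not a binding site.

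Levels per transcript length (CPM per kilobase of exon, written RPKM) ordered the members within a fraction. In tamoxifen Input the highest medians were 159 for Mbp and 139 for Cnp, the cyclic nucleotide phosphodiesterase of myelin, and Mobp lay 8th at 42.5. The ranges of Mbp (59.9 to 222) and Cnp (45.8 to 175) overlapped over 8 libraries. In tamoxifen SN_input Mbp led with a median of 2575 RPKM, Cnp followed at 389.9 and Mobp was 6th at 228. In both TRAP fractions of tamoxifen mice the first place went to Trf, which encodes the iron carrier transferrin, with medians of 219.9 RPKM in MG_TRAP and 397 in PeMP_TRAP. All of these ranges overlapped with those of Mbp in the same fraction.

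In the synaptosome fraction of tamoxifen mice, 3 members were called higher than in the homogenate, and Mbp had the largest fitted change. Mbp, whose protein compacts the sheath, was at 507 to 1879 CPM (median 1342) in Input and 1947 to 48578 CPM (median 21812) in SN_input (n = 8 each). All 8 letters were higher in SN_input, and the groups did not overlap, although the closest libraries were near each other: Input of replicate D at 1879 CPM and SN_input of replicate E at 1947. The fitted log2 fold change was 3.94 ± 0.61 (SE), or 15.4-fold, with an adjusted p of 2.99e-05 by edgeR's quasi-likelihood test. Mobp, a small basic protein of the sheath, was at 249 to 503 CPM (median 291) in Input and 438 to 2593 CPM (median 1559) in SN_input; 8 of 8 letters were higher, but the groups overlapped, and the log2 fold change was 2.13 ± 0.46 (adjusted p = 0.00388). Trf went from 10.1 to 264 CPM (median 175) to 124 to 1191 CPM (median 788), again higher in 8 of 8 letters with overlap between sets, with a log2 fold change of 2.57 ± 0.48 (adjusted p = 0.000658). In this bulk RNA, more fragments of a cell type in a fraction and more RNA per fragment cannot be told apart.

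These 3 were the only members of 30 past the threshold (adjusted p under 0.05), against 2.55% of the 15710 genes tested (2.08% higher). The fitted values of the others leaned the same way without passing: 28 of 30 members were fitted higher, with a median log2 fold change of 1.52 against -0.02 over all genes tested. Of the 14 sheath genes, all were fitted higher (median 1.78), and 8 had groups that did not overlap. Over the 30 members 9 did not overlap, where 2.67% of all genes were higher without overlap. Mag, an adhesion molecule facing the axon, was at 76.8 to 226 CPM (median 167) in Input and 284 to 1077 CPM (median 577) in SN_input (log2 fold change 1.92 ± 0.85, adjusted p = 0.332). Mal, a proteolipid, had 1.80 ± 0.55 (adjusted p = 0.068). The 7 metabolic genes had a median of 0.86, the 5 transcription factors 1.00, and the 2 precursor genes 1.43, and of these groups only Trf passed.

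The size of the change depended on scaling. With total counts in place of TMM the median of all genes moved from -0.02 to -1.07, the member median from 1.52 to 0.56 and the members fitted higher from 28 to 20, so the members lay 1.54 above the median of all genes with TMM and 1.63 above it with total counts. Mbp was called under TMM, relative log expression (RLE) and total counts. Mobp lost its call under RLE scaling (log2 fold change 1.31, adjusted p = 0.136) and total counts, and Trf lost its under total counts. By DESeq2 Mobp was not called either (1.31, adjusted p = 0.0915). As a share of reads without TMM, Mobp was lower in SN_input of replicates E and F. In E it had 1507 of 4590128 reads in Input and 1597 of 7724933 in SN_input, and in F 1346 of 3278640 and 778 of 4724548. The sets also differ: fitted on the second set alone Mbp had 4.56 (adjusted p = 3.25e-05), and on the first set alone 2.80 (adjusted p = 0.627), where 0 members were called. The interaction of set and fraction gave 0 members and 0 genes called by edgeR (619 genes at an unadjusted p under 0.05), so the difference between the sets did not pass a test. By DESeq2 249 genes were called in that interaction, none of them members.

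Other cell types moved with the members. Of 35 further oligodendrocyte genes, 3 were higher and 0 lower (median 1.47). Of 15 microglial markers, 15 were higher (median 3.91), and their summed level went from 206 to 363 to 2570.3 to 9671 CPM. Of 15 astrocyte markers, 4 were higher and 0 lower (median 2.12), with summed levels of 2547 to 3692 and 11569 to 20700.3 CPM. Of 13 neuronal markers 0 were called (median -0.16; 10984 to 15936 and 9058 to 15107 CPM). No microglial, astrocyte or neuronal marker was at 0 in every tamoxifen SN_input library. The part that a shared change of these cell types has in the result was not tested.

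**Figure D1:**
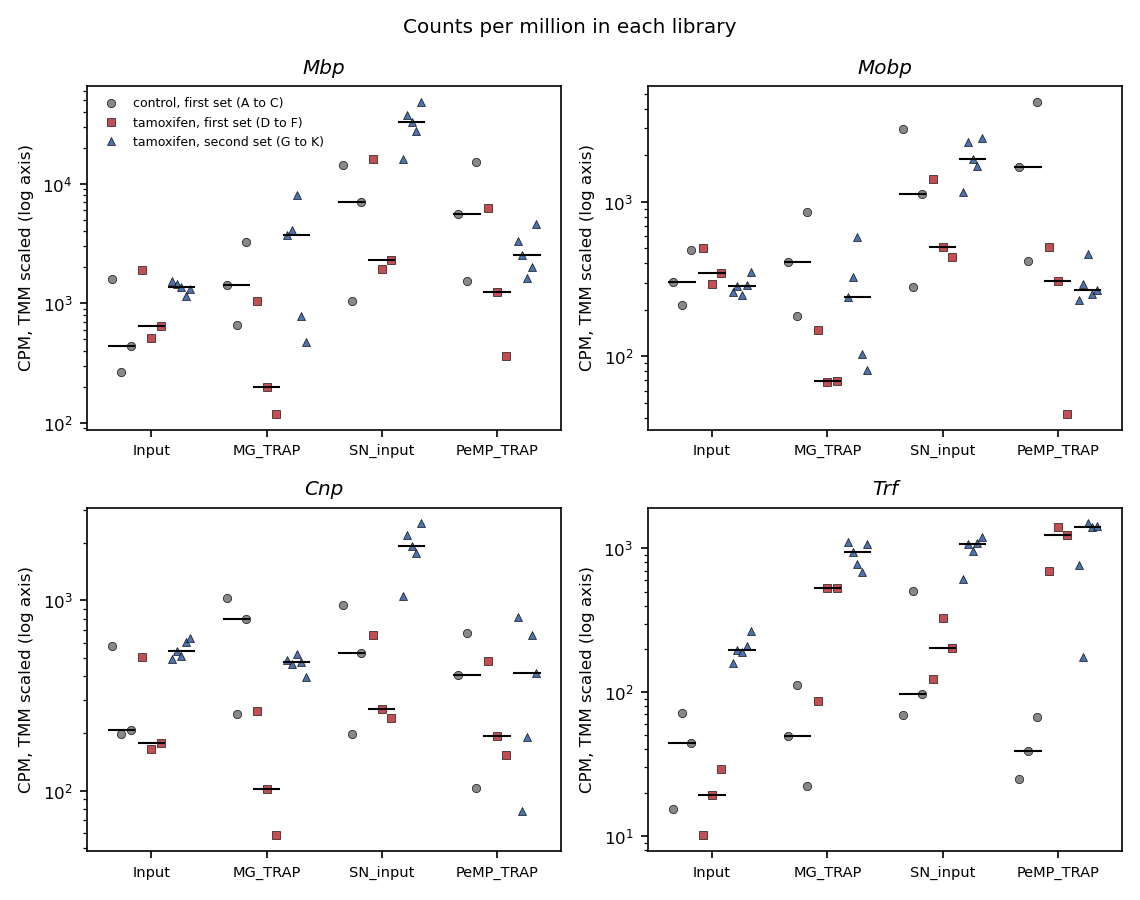
Level of Mbp, Mobp, Cnp and Trf in each library (CPM after TMM scaling, log axis), by fraction, with symbols for treatment and set and a bar at the median of each group. The highest group median of Mbp was that of second-set SN_input, and in both TRAP fractions all but 1 tamoxifen library (MG_TRAP of replicate D) held more Trf than every control library of the same fraction.

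In control mice Mbp again had the highest fitted value of the 30 members, but with 3 libraries a group no gene passed the threshold. Mbp was at 1606, 264 and 438 CPM in Input and 14276, 1039.7 and 7025 in SN_input for replicates A to C, and Mobp at 301, 216 and 486 and 2956, 281 and 1116. Replicate B was the lowest of the SN_input libraries for both genes, and the groups overlapped. Log2 fold changes were 3.14 ± 1.07 for Mbp (unadjusted p = 0.00544, adjusted p = 0.698) and 2.01 ± 0.93 for Mobp. With the replicate letter as a block Mbp was called (2.82, adjusted p = 0.0493), beside 14 of 14771 genes in all. Of 14771 genes tested 0% were called by edgeR (1010 at an unadjusted p under 0.05, and 153 called by DESeq2), and so 0 of 30 members were. Members fitted higher numbered 24 of 30 (median 0.84 against -0.11 over all genes), and 10 had groups that did not overlap, all higher, against 10.6% of all genes higher and 6.36% lower. The treatment interaction called 0 members and 0 of 14771 genes by edgeR (541 genes at an unadjusted p under 0.05, 72 by DESeq2), and for Mbp it was -0.62 ± 1.39.

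Ratios within a library do not depend on scaling, and they set Mbp apart from the sheath gene Cnp. Per Cnp count, tamoxifen Input held 1.89 to 3.75 (median 2.86) Mbp counts and tamoxifen SN_input 7.26 to 24.7 (median 16.1); the 8 libraries of each did not overlap. Control mice showed the same separation, with 2.80, 1.33 and 2.11 in Input against 15.1, 5.26 and 13.3 in SN_input. For Mobp per Cnp the second set went from 0.481 to 0.553 to 0.966 to 1.10 (5 libraries each, no overlap). In the first set tamoxifen Input held 1.00, 1.75 and 1.96 and SN_input 2.14, 1.90 and 1.82, which overlapped. Control Input held 0.525, 1.09 and 2.34 and control SN_input 3.13, 1.42 and 2.11, which also overlapped. Mog, a protein of the outer sheath surface, was at 0.188 to 0.227 per Cnp count in second-set Input and 0.166 to 0.231 in second-set SN_input, so for this pair the ranges overlapped. In first-set tamoxifen mice Mog rose without overlap, from 0.230, 0.391 and 0.242 in Input to 0.567, 0.651 and 1.23 in SN_input. In controls it did so from 0.235, 0.347 and 0.235 to 0.525, 1.18 and 0.854. Mag per Cnp count also rose without overlap in first-set tamoxifen mice, from 0.450, 0.461 and 0.789 to 1.64, 1.06 and 1.41. In the second set Mag overlapped.

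**Figure D2:**
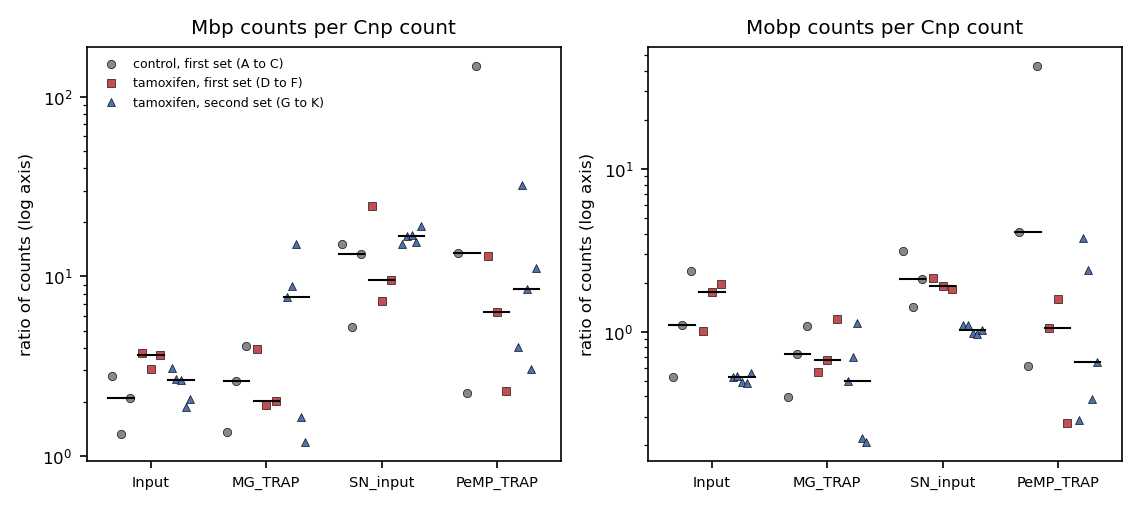
Counts of Mbp (left) and Mobp (right) per count of Cnp in each library (log axis), by fraction, with a bar at the group median. For Mbp all SN_input libraries lie at or above 5.26 and all Input libraries at or below 3.75.

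The member share of all reads was higher in SN_input than in Input in the second set and in replicate D, but lower in replicates E and F. It was 0.257% to 0.733% of assigned reads in tamoxifen Input and 1.96% to 5.48% in second-set SN_input. First-set tamoxifen SN_input held 1.64, 0.254 and 0.249% in replicates D to F, against 0.733, 0.257 and 0.321% in their Input. Mbp alone made up 72.5% to 80.7% of the member reads in second-set SN_input, against 30.8% to 40.4% in second-set Input. The mean log2 CPM of Mbp and Mobp minus the median of the other 28 members was 3.78 to 5.02 in tamoxifen Input and 4.14 to 6.60 in tamoxifen SN_input, with medians of 4.31 and 6.21. In the first set these medians were 4.13 and 4.24, closer together than over both sets. Control medians were 3.47 and 4.91, with ranges that overlapped.

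In the microglial pull-down of tamoxifen mice 2 members passed the threshold, in opposite directions, and most of the others were fitted lower than in the homogenate. Trf was higher in MG_TRAP of tamoxifen mice: 10.1 to 264 CPM (median 175) in Input and 87.4 to 1112 CPM (median 730.0) in MG_TRAP, higher in 8 of 8 letters, with a log2 fold change of 2.79 ± 0.49 (6.90-fold, adjusted p = 0.00012). Replicate D of MG_TRAP, at 87.4 CPM, lay below the second-set Input libraries, so the groups overlapped. Within the sets the log2 fold change was 4.32 in the first (adjusted p = 0.00964) and 2.22 in the second (adjusted p = 0.000739). Of the exon length of Trf 63.5% is shared with Gm20425, a protein-coding gene model on the same strand, and how reads there were assigned is not given in the sources used here.

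Cldn11, the tight junction protein of myelin, was lower: 14 to 267 CPM (median 227) in Input and 2.21 to 86.1 CPM (median 53.1) in MG_TRAP, lower in 8 of 8 letters, with a log2 fold change of -2.28 ± 0.68 (adjusted p = 0.0302). Replicate D had little Cldn11 in Input already, at 14 CPM, and the groups overlapped. The call was lost when replicate E, F, G, H or K was left out (adjusted p from 0.056 to 0.078). With these 2 calls of 30, the members stood beside 6.82% of all genes called (4.67% higher and 2.15% lower).

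Mbp and Mobp did not differ between MG_TRAP and Input beyond their spread. Mbp was at 118 to 7992 CPM (median 910.2) in MG_TRAP, with 3733, 4103 and 7992 CPM in replicates G to I and 1036, 197, 118, 785 and 471 in D, E, F, J and K. The first 3 exceeded every Input library and the others did not, and the log2 fold change was 0.55 ± 0.56 (adjusted p = 0.743). Its sign turned with RLE scaling (-0.06) and in the first set alone (-1.17). Mobp was at 67.8 to 595 CPM (median 126) and had -0.79 ± 0.44 (adjusted p = 0.419); by DESeq2 it was -1.36 with an adjusted p of 0.0411.

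Over all members 26 of 30 were fitted lower in MG_TRAP (median log2 fold change -1.39 against -0.14 over all genes), and 5 had groups without overlap, all lower, against 3.59% of all genes lower and 5.47% higher. The neuronal list (median -1.45, 4 of 13 lower) and the astrocyte list (median -1.34, 1 of 15 lower) lay near the members, while 15 of 15 microglial markers were higher (median 6.69). Summed neuronal markers were 1839.6 to 6367 CPM in MG_TRAP and summed astrocyte markers 606 to 1948 CPM. In control mice, which received no tamoxifen, 0 of 30 members were called by edgeR (0 at an unadjusted p under 0.05, 0 by DESeq2), against 0.0135% of 14771 genes. Control members had a median of 0.13, with 17 fitted higher and 13 lower, and 1 was higher and 1 lower without overlap (5.84% and 6.87% of all genes), and Mbp had 1.29 ± 1.00 and Mobp 0.64 ± 0.90.

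**Figure D3:**
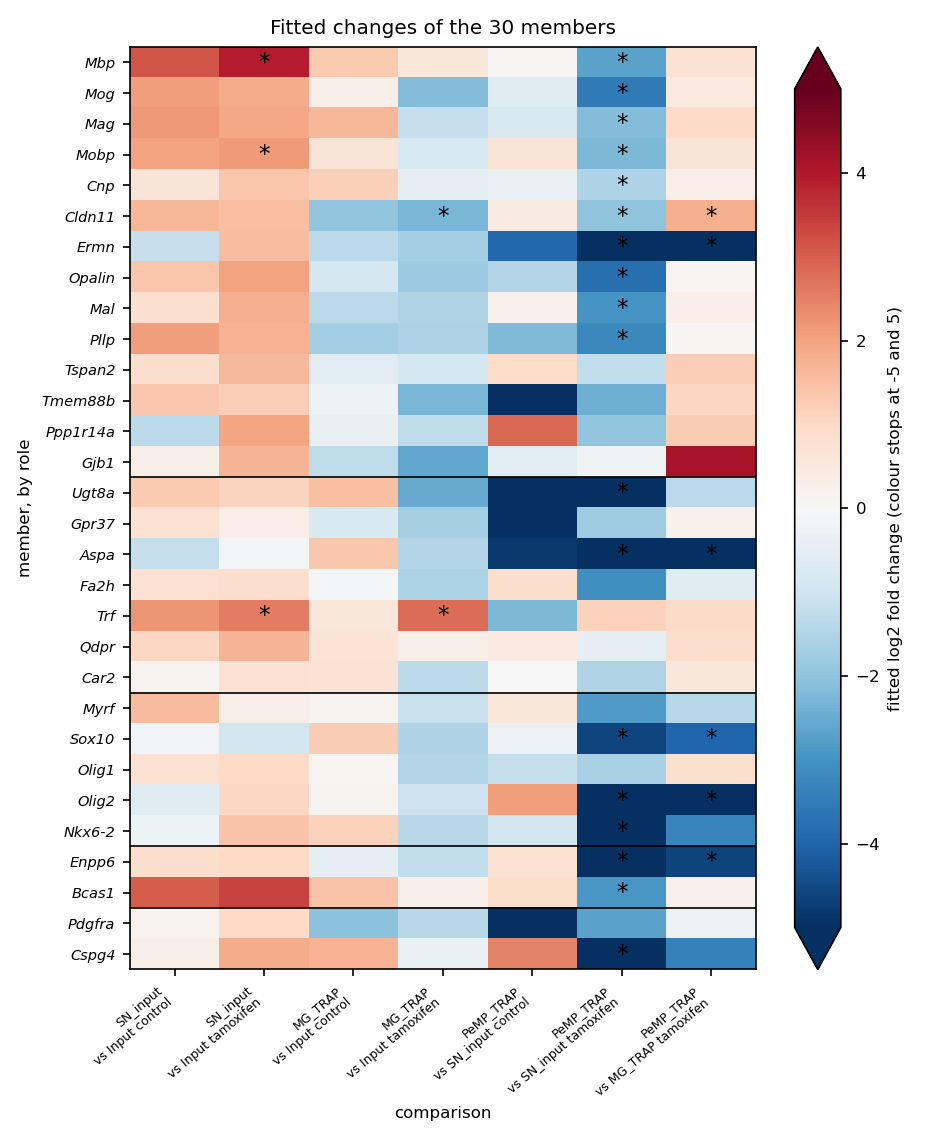
Fitted log2 fold change of the 30 members (rows, grouped by role, separated by lines) in 7 comparisons (columns); colour stops at -5 and 5, and an asterisk marks an adjusted p under 0.05. In the tamoxifen comparison of PeMP_TRAP with SN_input 18 members carry an asterisk, all lower, and in that of SN_input with Input 3 do, all higher.

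The synaptosomal pull-down held less of most members than the synaptosome fraction it was made from. In tamoxifen mice 18 of 30 members were lower and 0 higher in PeMP_TRAP than in SN_input, where 32.3% of all genes were called (6.15% higher and 26.1% lower). Their median was -2.75 against -0.75 for all genes, and -2.56 with Aspa and Enpp6, whose PeMP_TRAP libraries were all at or under the floor, set at their bound. By role 10 of 14 sheath genes fell, 2 of 7 metabolic genes, 3 of 5 transcription factors, both premyelinating genes and 1 of 2 precursor genes. Groups did not overlap for 6 members, all lower, against 3.55% of all genes. Beside them 10 of 13 neuronal markers and 8 of 15 astrocyte markers were lower (medians -2.10 and -2.41), 24 of 35 other oligodendrocyte genes were lower, and 15 of 15 microglial markers were higher (median 3.61). Summed microglial markers went from 2570.3 to 9671 to 23784 to 233501 CPM, summed neuronal markers from 9058 to 15107 to 1169.6 to 7661, and summed astrocyte markers from 11569 to 20700.3 to 938 to 7901, with none of these 3 lists holding a marker at 0 in every library. Whether the members followed these lists was not tested.

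Of the 4 with the lowest values, Ermn, a cytoskeletal protein of the sheath, went from 59.7 to 165 CPM (median 117) to 0 to 3.66 CPM (median 0). It was at 0 counts in replicate F and in all 5 second-set PeMP_TRAP libraries, did not overlap, and had a log2 fold change of -9.79 ± 1.43 (adjusted p = 9.27e-06). Olig2, a transcription factor of the whole lineage, went from 0.19 to 29.9 CPM (median 19.5) to 0 to 0.731 CPM (median 0) (-7.35 ± 1.54, adjusted p = 0.000512). Its lowest SN_input library, replicate D at 0.19 CPM, made the groups overlap. Aspa, which splits N-acetylaspartate, was at 0 counts in all 8 PeMP_TRAP libraries and at 0 to 20.6 CPM (median 9.55) in SN_input, so that the SN_input mean was at least 1.91-fold higher than the highest floor of a PeMP_TRAP library. Enpp6, an enzyme of newly forming oligodendrocytes, was at or under the floor throughout PeMP_TRAP and at 0 to 40.4 CPM (median 26.8) in SN_input, at least 4.81-fold higher by the same measure. Fitted values near these zeros (-10.28 for Aspa and -6.84 for Enpp6) depend on the prior count and are no bounds.

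Mbp and Mobp were among the other 14 that fell, whose log2 fold changes ran from -6.15 to -1.54. Mbp was at 358 to 6298 CPM (median 2274) in PeMP_TRAP and lower than SN_input in 8 of 8 letters (-2.67 ± 0.58, 6.35-fold lower, adjusted p = 0.000757). Mobp was at 42.4 to 509 CPM (median 281), also lower in 8 of 8 letters (-2.25 ± 0.46, adjusted p = 0.000372). SN_input of replicates E and F for Mbp, and of F for Mobp, lay within the range of PeMP_TRAP, so the groups overlapped. Both log2 fold changes were close to the median of the other members (-2.86). Fitted on the first set alone, 1 member was called (Ermn, -6.45, adjusted p = 0.0311), and on the second set alone 15, of which 13 were among the 18.

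Trf did not follow the others. Tamoxifen PeMP_TRAP held 176 to 1497 CPM (median 1319.6) of Trf, higher than SN_input in 7 of 8 letters, with 1.15 ± 0.48 (adjusted p = 0.0604). Replicate H was the exception, at 176 CPM against 1074 in SN_input. Trf was called with total counts, with the replicate letter as a block and without replicate H, and in no other alternative fit. In control mice Trf was at 24.8, 38.8 and 67.2 CPM in PeMP_TRAP and 69.4, 507 and 96.5 in SN_input, lower in all 3 letters without overlap (-2.24 ± 0.97, adjusted p = 0.25). The treatment interaction for Trf was 4.44 ± 1.37 (adjusted p = 0.0778).

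Many members were at 0 counts in the second-set PeMP_TRAP libraries. Of 30 members, 11 to 21 were at 0 counts in libraries of 20442643 to 35584637 assigned reads, which held 5372 to 7369 detected genes of any kind. Second-set SN_input had 14955 to 16876 detected genes and 0 members at 0. First-set tamoxifen PeMP_TRAP had 3, 1 and 8 members at 0 in replicates D to F, and control PeMP_TRAP 5, 4 and 2 in A to C. Members with more than 3 counts numbered 8 to 19 in second-set PeMP_TRAP, and 13, 22 and 11 in replicates D to F. The number of genes detected did not always move with this number. Replicate D had 13096 genes and 13 such members, and replicate H 5956 genes and 19. The part of gene detection in the member values was not tested.

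**Figure D4:**
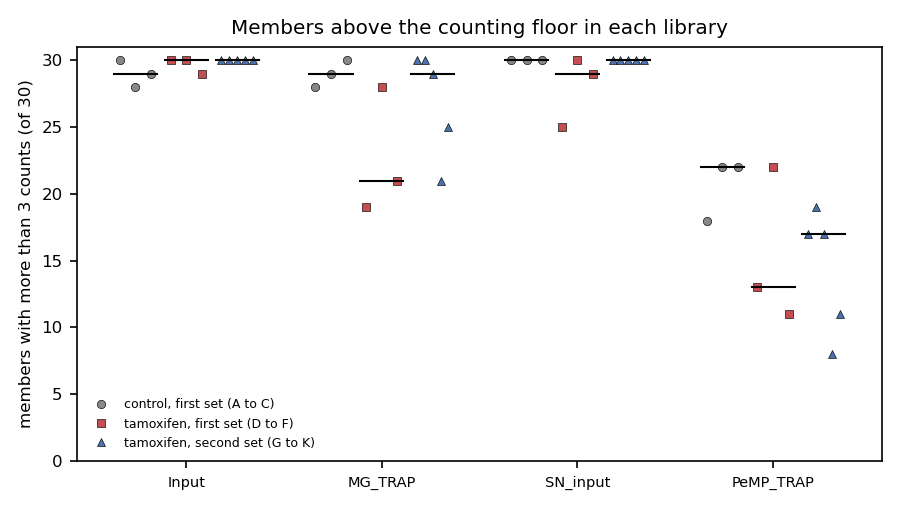
Number of the 30 members with more than 3 counts in each library, by fraction, with a bar at the group median. Input and SN_input libraries lie between 25 and 30, and PeMP_TRAP libraries between 8 and 22.

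In control mice PeMP_TRAP against SN_input called 0 of 30 members and 0% of genes by edgeR (2577 at an unadjusted p under 0.05; DESeq2 called 1318 genes, 5 of them members). Members had a median of -0.31 against -0.27 for all genes (0.21 against 0.00 with RLE scaling), and 9 were lower and 0 higher without overlap, where 18.6% of all genes were lower and 1.44% higher. Mbp was at 5519, 1517 and 15307 CPM in replicates A to C and had 0.04 ± 0.98, which turned negative with total counts (-0.28). Mobp, at 1677, 416 and 4455 CPM, had 0.63 ± 0.90. Replicate C was the highest for both. The treatment interaction called 0 members (1.24% of all genes), and for Mbp it was -1.76 ± 1.40.

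Between the 2 pull-downs of tamoxifen mice 6 members differed, where 25.2% of all genes were called (3.17% higher and 22% lower in PeMP_TRAP). Ermn (-6.54 ± 1.28, adjusted p = 0.000427), Olig2 (-5.26 ± 1.48, adjusted p = 0.0075), Aspa (-8.88 ± 1.98), Enpp6 (-4.61 ± 1.76, adjusted p = 0.0486) and Sox10 (-3.97 ± 1.31) were lower in PeMP_TRAP. All 5 were near 0 in PeMP_TRAP, where no library exceeded 4.89 CPM of any of them, and in MG_TRAP they ran from 0 to 32.7 CPM. Enpp6 lost its call with the replicate letter as a block and without replicate G, H, I, J or K. Sox10 lost its call without replicate D, G, I, J or K. Cldn11 was higher (1.78 ± 0.66, adjusted p = 0.0441), though only 4 of 8 letters were higher and the call was lost under RLE scaling and total counts. Mbp (0.72 ± 0.56) and Mobp (0.66 ± 0.44) did not pass, and both turned negative with total counts (-0.26 and -0.21). No member had groups without overlap, where 0.0955% of all genes were higher and 1.77% lower. The median of all members was 0.27 against -0.57 for all genes; with total counts it was -0.50 against -1.30.

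A direct test asked whether pulling down from synaptosomes (PeMP_TRAP over SN_input) changed a gene differently from pulling down from the homogenate (MG_TRAP over Input). It called 11.3% of all genes (10.9% lower and 0.388% higher) and 4 members, all lower: Aspa (-8.82 ± 2.23, adjusted p = 0.0092), Ermn (-8.08 ± 1.64, adjusted p = 0.00188), Olig2 (-6.31 ± 1.87, adjusted p = 0.0231) and Mbp (-3.22 ± 0.83, adjusted p = 0.00932). For Mbp the pull-down step went with 0.55 in the homogenate and -2.67 in the synaptosomes. On the second set alone the Mbp difference was -5.04 (adjusted p = 3.29e-05) and on the first alone -0.22 (adjusted p = 1.00), and it was not called without replicate H (adjusted p = 0.0503) or without replicate I (adjusted p = 0.064). The call of Olig2 was lost without replicate G, H, I or K and with no filter (adjusted p = 0.0564). With the replicate letter as a block the calls of Aspa and Olig2 were lost (adjusted p = 0.0657 and 0.0966). Mobp had -1.47 ± 0.63 (adjusted p = 0.141). The 15 microglial markers were lower as well in this difference (15 of 15, median -3.17), as was the median of all genes (-0.79).

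Tamoxifen against vehicle could be compared only in the first set, with 3 libraries on each side. In MG_TRAP, 29 of 30 members were fitted lower with tamoxifen (median -2.47 against -0.14 for all genes), but edgeR called 0 members and 0% of 14771 genes (2351 at an unadjusted p under 0.05, among them 13 members; DESeq2 called 1074 genes, 3 of them members). Mbp was at 1415, 661 and 3276 CPM in control MG_TRAP and 1036, 197 and 118 with tamoxifen (-2.26 ± 1.03, adjusted p = 0.276). For Mobp the values were 408, 184 and 862 and 148, 67.8 and 69.7, without overlap (-2.59 ± 0.95, adjusted p = 0.243). In all 10 members did not overlap, each lower with tamoxifen, against 13.3% of all genes. Trf was the 1 member fitted higher, at 49.8, 112 and 22.1 CPM in controls and 87.4, 530.4 and 527 with tamoxifen (2.50 ± 0.98, adjusted p = 0.243).

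Lists of other cells moved beside the members in MG_TRAP, with 0 calls in each. Neuronal markers had a median of -2.11 (13 of 13 fitted lower; 8125 to 10638 CPM summed in control MG_TRAP and 1839.6 to 2923 in first-set tamoxifen MG_TRAP). Astrocyte markers had -3.06 (15 of 15 lower; 2266 to 6888 and 606 to 1035 CPM), and the other oligodendrocyte genes -2.22 (30 of 35 lower). Microglial markers had 3.30 (15 of 15 higher; 3308 to 6389.7 and 53625 to 58244 CPM). The share of these changes in the member values was not tested.

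In PeMP_TRAP 4 members differed between tamoxifen and control, where 11.1% of all genes were called (5.56% in each direction). Trf was higher, at 696, 1399.5 and 1239.7 CPM with tamoxifen against 24.8, 38.8 and 67.2 in controls, without overlap (4.45 ± 1.07, 21.8-fold, adjusted p = 0.00997), and this call held when any 1 letter was left out (adjusted p up to 0.0458). Mog was lower, at 3.37, 35.1 and 3.26 against 113, 239.7 and 379.8 CPM without overlap (-4.21 ± 1.18, adjusted p = 0.0219). Mobp was lower, at 509, 308 and 42.4 against 1677, 416 and 4455 CPM, with overlap (-3.24 ± 0.98, adjusted p = 0.0298). Olig2, at or under the floor in all 3 tamoxifen libraries, was at least 14.4-fold lower than the control mean, with control libraries at 0.406, 180.1 and 30.8 CPM (adjusted p = 0.0345). Over all members 1 was higher and 3 lower without overlap, against 12.2% and 4.27% of all genes. The 3 lower calls were less steady: none of them passed without replicate C, D or F, Mobp did not pass without A or E, and Olig2 did not pass without B or E. Mbp had -1.93 ± 1.02 (adjusted p = 0.183). Of the other lists 11 of 15 microglial markers were higher (median 3.67), while 4 of 13 neuronal, 3 of 15 astrocyte and 3 of 10 endothelial markers were lower. Summed endothelial markers were 592 to 1932 CPM in control PeMP_TRAP and 17.5 to 985 in first-set tamoxifen PeMP_TRAP, and their part in the member values was not tested.

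**Figure D5:**
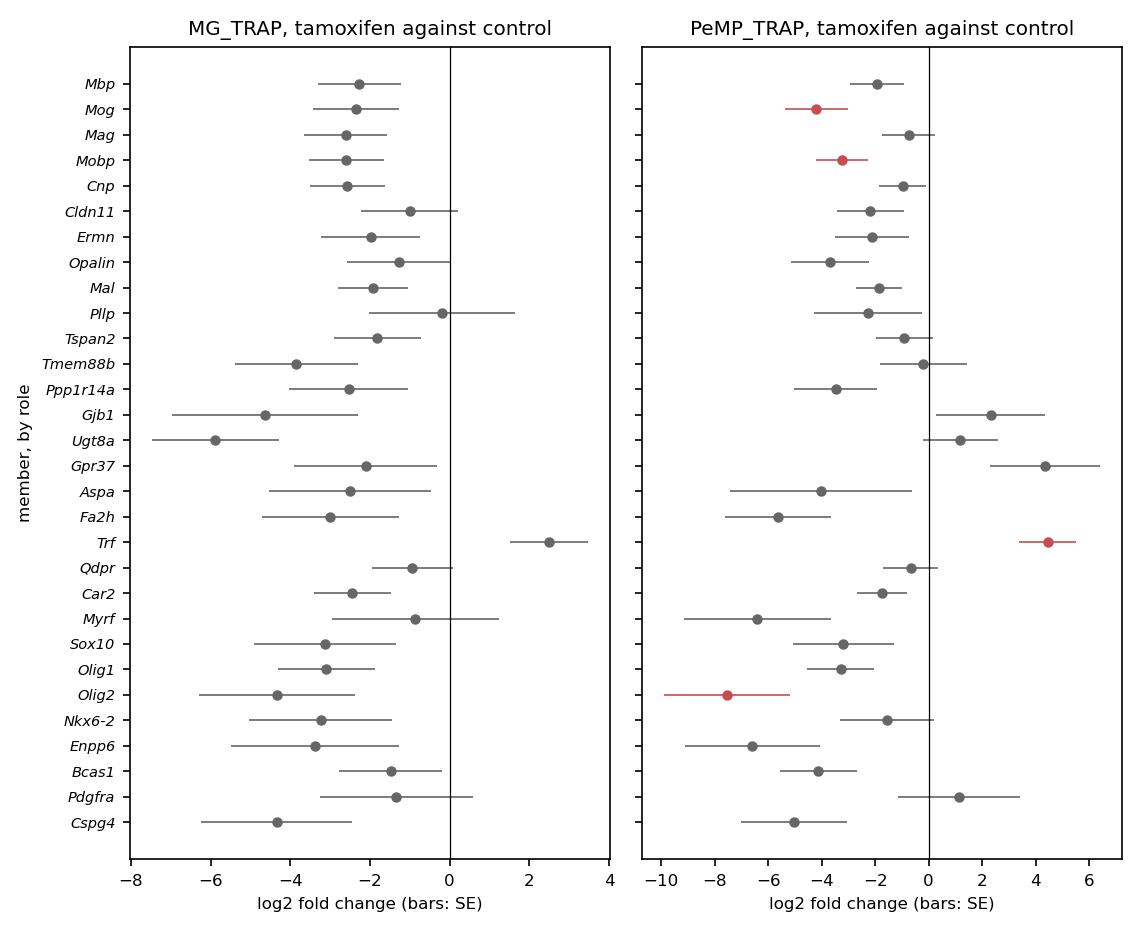
Fitted log2 fold change of each member with tamoxifen against control (points; bars show the SE) in MG_TRAP (left) and PeMP_TRAP (right), 3 libraries against 3; red marks an adjusted p under 0.05. In MG_TRAP every member but Trf lies below 0 and none is red, and in PeMP_TRAP Trf is red above 0 and Mog, Mobp and Olig2 are red below it.

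In the 2 fractions without pull-down the treatment made no called difference to any member. In Input the member median was -0.28 (0.03 for all genes) and in SN_input -0.26 (-0.15), with 0% of 14771 genes called by edgeR in either (452 and 495 at an unadjusted p under 0.05; 50 and 71 by DESeq2). Mbp had 0.45 ± 0.99 in Input and -0.17 ± 0.98 in SN_input. Groups did not overlap for 1 member in Input (lower; 2.82% of all genes) and 3 in SN_input (1 higher and 2 lower; 3.58% and 6.63% of all genes). Trf, called in PeMP_TRAP, had -1.10 ± 0.94 in Input and 0.01 ± 0.92 in SN_input.

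Trf took a different share of the member reads from library to library. It made up 0.223% to 6.35% in tamoxifen Input, 4.17% to 47.5% in tamoxifen MG_TRAP and 4.01% to 60.9% in tamoxifen PeMP_TRAP. In control mice it was 0.33% to 3.53% in MG_TRAP and 0.265% to 0.591% in PeMP_TRAP, below every tamoxifen library of the same fraction. Per Cnp count tamoxifen MG_TRAP held 0.334 to 9.07 Trf counts and control MG_TRAP 0.0482, 0.44 and 0.0276, where replicate B overlapped with tamoxifen replicate D.

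The pair of sheath-localized transcripts against the other members followed the fractions in the TRAP libraries as well, with a wide spread. The mean log2 CPM of Mbp and Mobp minus the median of the other 28 was 3.71 to 7.09 (median 5.59) in tamoxifen MG_TRAP and 5.18 to 12.9 (median 8.21) in tamoxifen PeMP_TRAP. In control mice it was 4.40, 3.65 and 5.60 in MG_TRAP and 8.06, 4.25 and 7.50 in PeMP_TRAP. PeMP_TRAP values are raised by members at 0 counts, which sit at the prior count of 2. Against the other 12 sheath genes only, the tamoxifen medians were 3.37 in Input, 4.90 in SN_input, 5.0 in MG_TRAP and 5.63 in PeMP_TRAP, and all these groups overlapped. In the first set this measure was lower in SN_input than in Input in each letter. It was 4.45, 2.52 and 3.09 in Input and 4.19, 2.47 and 2.42 in SN_input for replicates D to F. In the first set alone MG_TRAP minus Input was -0.18 for the medians over the 28, and in the second set alone 1.82.

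Differences between the sets in the synaptosomal pull-down were tested directly. The change from SN_input to PeMP_TRAP was lower in the second set for 5 members: Enpp6 (-8.24 ± 2.44, adjusted p = 0.0184), Cspg4 (-8.06 ± 2.21, adjusted p = 0.0111), Ermn (-7.33 ± 1.80, adjusted p = 0.00501), Nkx6-2 (-5.99 ± 1.97, adjusted p = 0.0356) and Trf (-2.26 ± 0.78, adjusted p = 0.0451). Trf lost its call under RLE scaling, by DESeq2, with no filter and without replicate E, F, G, H, I, J or K. Nkx6-2 lost its call under RLE scaling, with no filter and without E, F, H, I or J. Cspg4 and Ermn were not called without E, nor Enpp6 without F. Over all genes 15.1% were called (14.9% lower), and the medians were -1.90 for the members and -1.61 for all 17961 genes tested. In the same test Mbp had -2.15 ± 1.05 and Mobp -1.25 ± 0.84, and neither passed (adjusted p = 0.192 and 0.402). With no filter on low counts Mbp was called (-2.16, adjusted p = 0.00123). For MG_TRAP over Input the sets gave 0 called members and 0 called genes by edgeR (1070 at an unadjusted p under 0.05, 333 by DESeq2). With no filter edgeR called Mbp there (2.72, adjusted p = 0.000658).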

How the data were processed

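RNA of 4 fractions was measured in 44 libraries. Per the labels' protocols RNA was amplified with the SMART-Seq v4 kit and made into libraries with NEBNext Ultra II. Each library's file, as the authors deposited it, lists whole-number HTSeq counts by Ensembl gene. Per the submitters' processing notes the tools were FastQC 0.11.7, Trimmomatic 0.38, Bowtie2 2.3.5, STAR 2.7.0d, HTSeq 0.9.1 and edgeR; their roles, the genome build, the annotation and the strand option are not given in the sources used here. Without a known strand option, reads from overlapping antisense genes cannot be told apart (54.2% of the exon length of Pllp, 18.6% of Qdpr, 12.6% of Bcas1), and Mbp counts do not separate the transcripts of that locus. The deposited table of CPM values and comparisons was not used here.

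Rows that name no gene were left out; reads without a feature made up 1.27% to 25.1% of a library and ambiguous reads 0.396% to 4.17%. The 50714 identifiers present in both sets were analysed, and those left out held 0.0232% to 0.795% of assigned reads. Coordinates and exon lengths came from GENCODE M21 (GRCm38), promoter windows from RefSeq (GRCm38.p6). Counts were fitted with edgeR 4.0.16 in R 4.3.3: TMM scaling, filterByExpr with a minimum count of 10, quasi-likelihood test, Benjamini-Hochberg adjustment over all genes tested, threshold 0.05. Fractions of tamoxifen mice were compared on 32 libraries with set as a covariate (15710 genes), control comparisons on the 24 first-set libraries (14771 genes), and set interactions on the 32 tamoxifen libraries (17961 genes). Log2 CPM per library used a prior count of 2. SE is the absolute log2 fold change over the square root of the F statistic. The scripts were checked on simulated data. Alternatives were RLE scaling, total counts, no filter, DESeq2 1.42.0, the replicate letter as a block, each set alone, leaving out each letter, other prior counts and, for the pair of Mbp and Mobp, sheath genes only. Depth per library (746616 to 35584637 assigned reads) sets the floor below which a member cannot be told from 0.

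Mbp and Mobp were named in most comparisons, with the 4 highest and 4 lowest called members of each, and Cx3cr1, Tmem119 and P2ry12 served as the pull-down check. A further gene is not reported here. The members and lists were chosen with earlier results of these data known. No test was made over the members as a set.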

Additional observations from a re-analysis of the deposited data

Results flagged for a closer look

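In 3 of 28 groups of 8 tamoxifen libraries examined, 1 library lay farther from the others than Dixon's 95% critical value allows, where chance gives about 1 in 20. These were Mobp in PeMP_TRAP of replicate F, at a log2 CPM of 5.41 against 7.86 for the next lowest, Trf in MG_TRAP of replicate D, at 6.45 against 9.04, and Trf in PeMP_TRAP of replicate H, at 7.46 against 9.44.

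For 4 members the pull-down step differed between synaptosomes and homogenate by a test of the difference itself: on the log2 scale -3.22 for Mbp, -8.08 for Ermn, -6.31 for Olig2 and -8.82 for Aspa. That test called 11.3% of all genes (10.9% lower). The step from SN_input to PeMP_TRAP differed between the second and the first set for 5 members, by -8.24 for Enpp6, -8.06 for Cspg4, -7.33 for Ermn, -5.99 for Nkx6-2 and -2.26 for Trf. In this interaction 15.1% of all 17961 genes were called (14.9% lower). Values of Aspa, Ermn, Olig2, Enpp6, Cspg4 and Nkx6-2 rest on PeMP_TRAP libraries at or near 0 counts.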

How the results depend on the processing

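Of 290 recomputed counts of called members and levels of the Mbp and Mobp pair, 254 stayed within 1.5 times the reported count or within 1 SD of the level. The cause of the other 36 was not tested, beyond the smaller number of libraries in fits that left some out. For SN_input against Input in tamoxifen mice 1 member was called with total counts and 0 in the first set alone, where the Mbp and Mobp pair differed by 0.11. For MG_TRAP against Input DESeq2 called 7 (1987 of 32165 genes), the first set alone 1 and fits without 1 letter 1 to 2. For PeMP_TRAP against SN_input the first set alone called 1, and fits without 1 letter 15 to 20. For PeMP_TRAP against MG_TRAP the first set alone called 0 and fits without 1 letter 3 to 8. For the difference between the pull-down steps DESeq2 called 7 (2354 of 32165 genes). The first set alone called 0, the second set alone 12 and fits without 1 letter 2 to 8. In control mice DESeq2 called 5 members (1318 of 27860 genes) for PeMP_TRAP against SN_input. For tamoxifen against control DESeq2 called 3 in MG_TRAP (1074 of 27860 genes) and 13 in PeMP_TRAP (4143 of 27860 genes). In PeMP_TRAP fits without 1 letter called 1 to 5. For treatment interactions DESeq2 called 1 with MG_TRAP (243 of 27860 genes) and 6 with PeMP_TRAP (1839 of 27860 genes), and total counts 1 with PeMP_TRAP. For set interactions the fit with no filter called 1 with MG_TRAP (Mbp), and with PeMP_TRAP RLE scaling called 3 and fits without 1 letter 2 to 7.

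Some values of Mbp and Mobp turned sign, none of them past the threshold as reported. For Mbp in MG_TRAP against Input the log2 fold change was -0.063 with RLE scaling, -0.063 with DESeq2, -1.17 in the first set alone and -0.0096 to 0.85 in fits without 1 letter (below 0 without I). For PeMP_TRAP against MG_TRAP Mbp had -0.26 with total counts and -0.48 in the second set alone, and Mobp -0.21 and -0.024. The Mobp difference between pull-down steps was 0.54 in the first set alone. In control PeMP_TRAP against SN_input Mbp had -0.28 with total counts, -0.018 with no filter and -1.08 to 1.09 in fits without 1 letter (below 0 without B or C), and Mobp -0.58 to 1.82 (below 0 without C). For tamoxifen against control in Input, fits without 1 letter gave -0.38 to 1.51 for Mbp and -0.041 to 0.57 for Mobp, both below 0 without B or D. In SN_input they gave -1.78 to 0.79 for Mbp (above 0 without A, E or F) and -1.59 to 0.19 for Mobp (above 0 without A). The Mobp treatment interaction of SN_input against Input ran from -1.60 to 0.087 (above 0 without A).

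Not every pair of same-letter libraries deviated together: over 11 letters the correlation of their deviations from the group means was -0.0391 to 0.224 for MG_TRAP with Input, -0.00169 to 0.151 for SN_input with Input, -0.0124 to 0.0936 for PeMP_TRAP with SN_input and -0.00461 to 0.115 for PeMP_TRAP with MG_TRAP. A library correlated best with its own letter in 8, 8, 5 and 7 of 11. With the replicate letter as a block 1 member was called for SN_input against Input in control mice (Mbp, 2.82, adjusted p = 0.0493), 24 for PeMP_TRAP against SN_input and 2 for the difference between pull-down steps. Over all genes these fits called 14 of 14771, 5281 of 15710 and 849 of 15710. Depth limits the floor of the shallowest PeMP_TRAP libraries most, and with 3 libraries a group the control comparisons have wide errors.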
